A study of Mus musculus with 12 samples.

Results

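Messenger RNA levels of 7 thin filament genes were measured in the mouse left ventricle. They encode the cardiac troponin subunits C (Tnnc1), I (Tnni3) and T (Tnnt2), the slow skeletal, fetal troponin I (Tnni1), alpha-tropomyosin (Tpm1), and the pointed-end proteins leiomodin 2 (Lmod2) and tropomodulin 1 (Tmod1). The genes were chosen by symbol, with earlier results of these data known. All 7 were found among the 17052 genes of the deposited table. Of these, 6 passed the filter on low values used for testing (at least 1 FPKM in at least 3 libraries), as did 11415 genes in all, and Tnni1 did not. FPKM counts fragments relative to transcript length and to the library's mapped fragments, so levels can be compared between genes.

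The study sequenced 12 C57BL/6 mice, 3 in each of 4 groups, 1 library per mouse. Surgery at 8 weeks of age was either a sham operation or the clipping of the aortic arch known as transverse aortic constriction (TAC), which makes the left ventricle pump against a raised pressure, and the left ventricle was taken at 12 weeks. Within each surgery, mice received oral pimobendan at 1 mg/kg/day for 4 weeks or were controls, for which the labels name no vehicle. The groups are named Sham+control or TAC+control without the drug and Sham+pimobendan or TAC+pimobendan with it, and no group carries an engineered allele.

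The thin filament is the actin strand of the sarcomere, along which tropomyosin lies and troponin sits at regular intervals. When calcium binds troponin C, troponin I releases its hold on actin, troponin T passes the change on to tropomyosin, and myosin gains access to actin. Pimobendan is known as a calcium sensitizer that acts on cardiac troponin C and as an inhibitor of phosphodiesterase 3. Its action on troponin C is on the protein, which messenger RNA does not measure. In the developing heart troponin I is first the slow skeletal form and is replaced by the cardiac form around birth.

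FPKM summed to between 593203 and 643478 per library. The table has no counts, so absolute depth is unknown. From the step size of low values in 49 genes with 1 transcript, relative depth was 0.845 to 1.17 times the median library. Pearson r of log2(FPKM + 1) across genes was 0.986 to 0.994 between libraries of a group and 0.974 to 0.994 between groups. Spearman's rho across genes between transcript GC content and the library's difference from the all-library mean was -0.198, -0.504 and -0.523 in the TAC+pimobendan libraries and ran from -0.351 to 0.530 in the other 9. All 8 ventricular muscle markers, among them the members Tnni3 and Tnnt2, were above 1 FPKM. They summed to between 48520 and 57035 FPKM, which fits the labelled tissue. Of 5 atrial markers 1 was above 1 FPKM, with sums of 2.24 to 5.61 FPKM. Of 10 fast skeletal markers 3 were, with sums of 42.5 to 127.5 FPKM, and most of that was Myl1. Erythroid markers summed to 4199 to 6702 FPKM in TAC+control and to 452.1 to 3063 FPKM in the other groups. Their part in the results was not tested. In bulk tissue, fewer cells of a type and less RNA per cell cannot be told apart.

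Sequences just before a listed start site are shown for 3 members. Tnnc1 encodes the drug's target, Tnnt2 shares a short muscle motif with it, and Lmod2 was the tested member that varied most and holds no match. Each is the 250 bases before a transcription start listed in RefSeq on GRCm38.p6, 5′ to 3′ on the gene's strand. The Tnnc1 and Lmod2 windows end just before the gene's RefSeq span. The Tnnt2 window ends at 135836333, inside a span that begins at 135836315. Capitals mark the letters CATTCC or, on the other strand, GGAATG, the core of the MCAT element that TEAD factors bind in muscle genes.
Tnnc1 chr14:31208062-31208311 (+ strand): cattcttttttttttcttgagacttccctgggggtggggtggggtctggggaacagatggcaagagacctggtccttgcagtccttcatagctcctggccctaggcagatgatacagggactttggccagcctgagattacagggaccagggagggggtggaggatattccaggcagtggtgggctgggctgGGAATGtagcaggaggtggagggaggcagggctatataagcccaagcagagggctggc
Tnnt2 chr1:135836084-135836333 (+ strand): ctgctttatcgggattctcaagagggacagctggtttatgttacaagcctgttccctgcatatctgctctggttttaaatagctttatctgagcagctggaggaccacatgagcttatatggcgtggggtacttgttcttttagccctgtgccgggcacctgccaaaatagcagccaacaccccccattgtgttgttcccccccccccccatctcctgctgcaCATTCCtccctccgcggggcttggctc
Lmod2 chr6:24597521-24597770 (+ strand): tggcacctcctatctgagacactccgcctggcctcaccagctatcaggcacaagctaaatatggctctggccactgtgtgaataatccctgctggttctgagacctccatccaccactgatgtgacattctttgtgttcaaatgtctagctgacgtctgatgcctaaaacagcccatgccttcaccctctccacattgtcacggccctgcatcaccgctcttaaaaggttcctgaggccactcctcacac
Counted upstream from the listed start site, the match began at base 58 in Tnnc1 (as GGAATG) and at base 27 in Tnnt2 (as CATTCC). Tpm1 held GGAATG at base 56 and Tmod1 held CATTCC at base 163, in windows that lie wholly inside the gene's span. Tnnt2 and Tnni1 have 2 start sites each in the RefSeq table, and the second Tnnt2 window held no match. The Tnnt2 and Tnni1 windows lie partly or wholly inside the gene spans, as does that of Tnni3. In all, 4 of the members' 9 windows, from 4 of 7 genes, held a match, against 12.6% of 32851 RefSeq promoters of the same length. The other motifs were searched on both strands too. An E-box (CANNTG) lay in 8 of 9 windows, from 6 genes (66.2% of all promoters), and a GATA motif (AGATAA or TGATAA) in 1 window, of Tnnt2 (16.6%). A MEF2 motif (CTAAAAATA, CTATAAATA, CTATTTATA or CTATTTTTA) lay in both Tnni1 windows, which overlap (1.46%), and TATAAA in 0 (12.4%). These are letter matches in a window, and binding was not measured.

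Cardiac troponin C, the calcium-binding subunit, is encoded by Tnnc1 (NCBI Gene 21924), which RefSeq places on chromosome 14 from 31208312 to 31211729 on the forward strand of GRCm38. The deposited table gives a wider span, from 31205126 to 31222888. Tnnc1 stood at 3869.8, 4381 and 4748 FPKM in Sham+control replicates 1 to 3 and at 4005, 4118 and 4374 in Sham+pimobendan. It stood at 4705, 4921 and 4389 FPKM in TAC+control and at 4084, 4776 and 3207 in TAC+pimobendan. All groups overlapped, and the lowest of the 12 libraries was TAC+pimobendan replicate 3. The group means were 4333 ± 441 (Sham+control), 4166 ± 189 (Sham+pimobendan), 4672 ± 268 (TAC+control) and 4023 ± 786 FPKM (TAC+pimobendan; SD, n = 3 each).

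Cardiac troponin I, the inhibitory subunit, is encoded by Tnni3 (NCBI Gene 21954; chromosome 7, 4518305 to 4522718, reverse strand). Its levels were 7010.1, 7552 and 8437 FPKM in Sham+control mice and, with pimobendan, 7490.02, 7221 and 8312. They were 7655, 7292 and 7785 FPKM in TAC+control mice and, with pimobendan, 7277, 7427 and 6704. The groups overlapped throughout, with means between 7136 ± 382 FPKM in TAC+pimobendan and 7674 ± 568 FPKM in Sham+pimobendan (SD, n = 3).

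Cardiac troponin T, the subunit that anchors the complex to tropomyosin, is encoded by Tnnt2 (NCBI Gene 21956; chromosome 1, 135836315 to 135852268, forward strand). The deposited table lists 25 transcripts for Tnnt2 and gives 1 value for all. Tnnt2 stood at 6020.4, 6491 and 5787 FPKM in Sham+control and at 5749, 4781 and 5754 in Sham+pimobendan. After TAC it stood at 7224, 5916 and 5559.7 FPKM in controls and at 5701, 7179.7 and 6559 with pimobendan. The Sham+pimobendan libraries all lay below the Sham+control libraries, by as little as 5754 against 5787 FPKM, and the other pairs of groups compared overlapped. The sham means were 6099.6 ± 359 FPKM in controls and 5428 ± 560.4 with pimobendan, and the TAC means 6233 ± 876 and 6480.08 ± 742 FPKM (SD, n = 3).

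The fetal troponin I gene Tnni1 (NCBI Gene 21952) lies near Tnnt2 on chromosome 1, from 135783033 to 135810989 on the same strand, yet by mean FPKM it ranked 13222 of 17052 genes. It was listed at 0.36, 0.28 and 0.19 FPKM in Sham+control and at 0.27, 0.10 and 0.18 in Sham+pimobendan. It was listed at 0.21, 0 and 0 FPKM in TAC+control and at 0.18, 0.12 and 0.21 in TAC+pimobendan. Tnni1 reached at most 0.00514% of the Tnni3 level in any library. Values this low can rest on few fragments per library, which the table does not count, and 0 may mean that none was assigned. The fold change and the ratios of Tnni1 carry that limit. With no filter on low values, limma gave Tnni1 a log2 fold change of -0.26 ± 0.081 (SE) for TAC+control against Sham+control (unadjusted p = 0.00878, adjusted p = 0.621 over all genes). At these levels the pseudocount of 1 FPKM sets most of that scale.

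The balance of Tnni1 to Tnni3 was tested as the mean log2 ratio per group. The ratio could be formed in every library of 2 comparisons. With pimobendan after sham surgery it was lower by 0.66 (exact two-sided permutation p = 0.2, adjusted p = 0.4), and for TAC under pimobendan it differed by 0.071 (exact p = 0.9, adjusted p = 0.9). With 1 library left out, the first ran from -1.02 to -0.33 (without Sham+pimobendan replicates 1 and 2) and the second from -0.27 to 0.42 (without Sham+pimobendan replicates 2 and 1). With 3 mice against 3 the smallest p possible is 0.1. The TAC+control libraries listed at 0 prevented the ratio in the other comparisons. After adding 1 FPKM to both genes, the 4 comparisons gave exact permutation p-values of 0.2 to 0.7 and adjusted values of 0.4 to 0.7. No direction was established for Tnni1.

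Tropomyosin, the coiled-coil strand that covers the myosin-binding sites on actin, is encoded in heart muscle mainly by Tpm1 (NCBI Gene 22003; chromosome 9, 67022590 to 67049672, reverse strand; 66998440 to 67049649 in the deposited table). It was the highest member. Tpm1 stood at 10825, 11462 and 11386 FPKM in Sham+control and at 10072, 10654 and 11880.3 in Sham+pimobendan. It stood at 12911, 10665 and 10923 FPKM in TAC+control and at 9954, 10817 and 9208 in TAC+pimobendan. The lowest 2 of the 12 libraries were TAC+pimobendan replicates 3 and 1, and replicate 2 of that group overlapped the controls. The mean was 11499.8 ± 1229 FPKM in TAC+control and 9993 ± 805 FPKM in TAC+pimobendan (SD, n = 3). The deposited table lists 30 transcripts for Tpm1. They serve striated muscle and other cells, which this 1 value does not separate.

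Leiomodin 2 nucleates and elongates the thin filament at its pointed end and is encoded by Lmod2 (NCBI Gene 93677; chromosome 6, 24597771 to 24605414, forward strand). It stood at 410.4, 423.0 and 330.8 FPKM in Sham+control and at 449.7, 294.0 and 328.4 in Sham+pimobendan. It stood at 246.3, 274.1 and 380.3 FPKM in TAC+control and at 346.8, 363.7 and 360.5 in TAC+pimobendan. The 2 lowest of the 12 libraries were TAC+control replicates 1 and 2, while replicate 3 of that group lay within the sham range. Lmod2 means were 388 ± 50.01 FPKM in sham controls and 357 ± 81.8 in sham mice given the drug, and after TAC 300.2 ± 70.7 and 357 ± 8.95 FPKM (SD, n = 3).

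Tropomodulin 1 caps the pointed end and holds filament length, against leiomodin. Its gene Tmod1 (NCBI Gene 21916; chromosome 4, 46038940 to 46116032, forward strand) overlaps RefSeq Tstd2 and Gm52729, so some of its reads could be shared. Tmod1 stood at 193.8, 192.8 and 204.8 FPKM in Sham+control and at 184.8, 195.2 and 199.5 in Sham+pimobendan. It stood at 200.2, 195.2 and 198.2 FPKM in TAC+control and at 184.7, 192.0 and 181.4 in TAC+pimobendan. All TAC+pimobendan libraries were below all TAC+control libraries. The means of those groups were 186 ± 5.40 and 198 ± 2.53 FPKM (SD, n = 3).

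**Figure D1:**
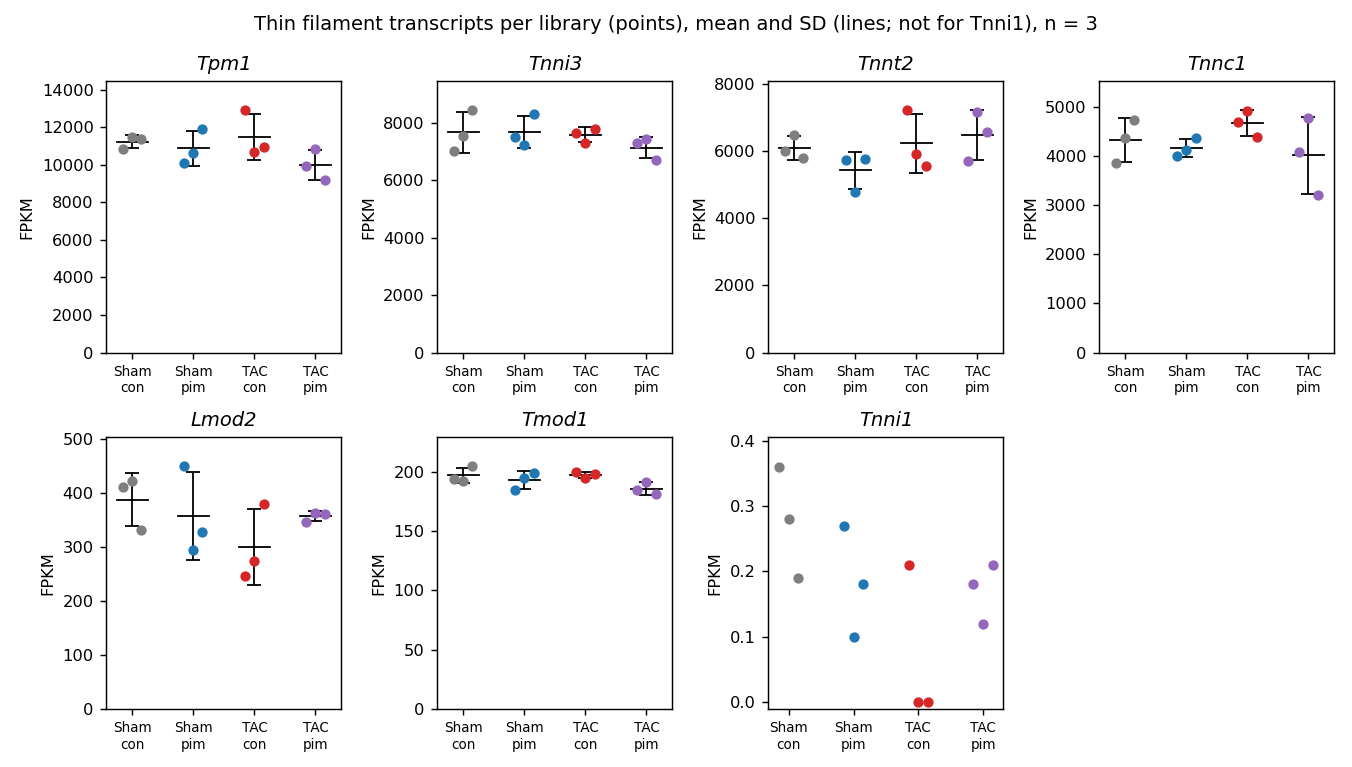
FPKM (y axis, from 0, a separate scale for each gene) of each of the 7 genes in the 12 libraries, by group (x axis; con, control; pim, pimobendan). Points are libraries, and lines are the mean and SD of 3, not drawn for Tnni1. Tmod1 sits between 181.4 and 204.8 FPKM in all libraries, while Lmod2 spans 246.3 to 449.7 FPKM.

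The order of levels was the same in each of the 12 libraries. Tpm1 was highest, then Tnni3, Tnnt2, Tnnc1, Lmod2, Tmod1 and Tnni1. By mean FPKM over all libraries, Tpm1 ranked 4 in the table, Tnni3 ranked 6, Tnnt2 ranked 9 and Tnnc1 ranked 13, against 282 for Lmod2 and 444 for Tmod1. The cardiac troponin transcripts Tnnc1, Tnni3 and Tnnt2 together made up 2.64% to 3.20% of all FPKM, and the 7 genes made up 4.42% to 5.20%. The transcripts of the troponin complex, whose subunits assemble one to one, were not at equal levels: Tnnc1 was 0.478 to 0.675 times Tnni3 (median 0.563), and Tnnt2 was 0.662 to 0.978 times Tnni3.

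The 6 tested members differed in how much they varied between mice. Tmod1 was the steadiest, with a coefficient of variation of 3.62% over 12 libraries and a highest value 1.13 times the lowest. Its SD on the log2(FPKM + 1) scale was 0.052, and 0.219% of tested genes had a smaller one. Among the 787 genes with a mean over 100 FPKM the share was 1.40%. Lmod2, its counterpart at the pointed end, varied most of the 6, with a coefficient of variation of 17.3%, a highest value 1.83 times the lowest, and an SD of 0.26 that exceeded 91.5% of those 787 genes. Between them lay Tnni3 (SD 0.094), Tpm1 (0.13), Tnnt2 (0.17) and Tnnc1 (0.17), beside a median of 0.12 for genes over 100 FPKM and 0.17 for all tested genes.

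**Figure D2:**
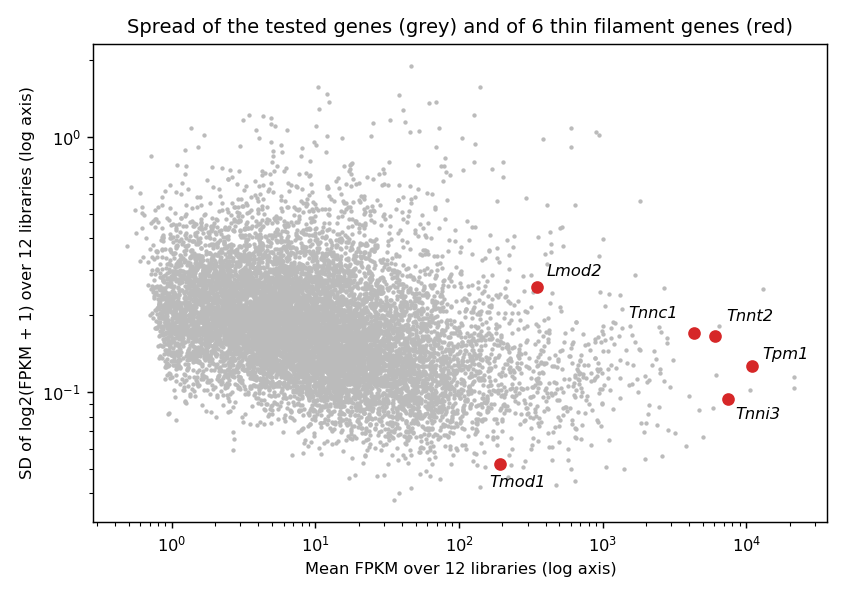
SD of log2(FPKM + 1) over the 12 libraries (y axis, log scale) against mean FPKM (x axis, log scale) for all 11415 tested genes (grey) and the 6 tested members (red). Tmod1 lies at 0.052, near the lower edge, and Lmod2 at 0.26.

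Pressure overload without drug was compared first (TAC+control against Sham+control). Of the 6 tested members, 0 passed limma's test at a Benjamini-Hochberg adjusted p under 0.05. Called genes were 0% of the 11415 tested, with 951 genes at an unadjusted p under 0.05 and 1 of them a member. That was Lmod2, with a log2 fold change of -0.39 ± 0.17 (SE; 95% interval -0.75 to -0.021; limma unadjusted p = 0.0400, adjusted p = 0.585). Leaving out TAC+control replicate 1 gave Lmod2 -0.26, and leaving out TAC+control replicate 3 gave -0.57. Tnnc1 differed by 0.11 ± 0.12 (95% interval -0.15 to 0.38; limma adjusted p = 0.810). Tnni3 (-0.013), Tnnt2 (0.024), Tpm1 (0.030) and Tmod1 (0.0056) lay closest to 0, with limma adjusted p-values of 0.943 to 0.983. Of these, Tmod1 had the tightest 95% interval, from -0.13 to 0.14. The median over the 6 members was 0.015, against -0.057 over all tested genes, and groups overlapped for all 6 tested members (they did not for 12.7% of tested genes, 9.74% in the lower direction).

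Pimobendan after TAC was compared next (TAC+pimobendan against TAC+control), the question being whether the target and its partners changed in the loaded ventricle under drug. Again 0 of 6 members were called, where 3.27% of tested genes were (3.15% higher and 0.114% lower). The target Tnnc1 had a log2 fold change of -0.23 ± 0.12, a fold of 0.851 (95% interval -0.50 to 0.030; limma unadjusted p = 0.0778, adjusted p = 0.240). Without TAC+pimobendan replicate 3 it was -0.079, and without replicate 2 of that group it was -0.37. Tpm1 had the smallest p, at -0.20 ± 0.090 (95% interval -0.39 to -0.0060; limma unadjusted p = 0.0442, adjusted p = 0.177). Without TAC+control replicate 1 it was -0.11, and under quantile normalization its sign turned, to 0.077. Quantile normalization gives each rank 1 value in all libraries, so a change that keeps a top gene's rank is lost. Tpm1 ranked 4 by mean FPKM. Over all tested genes, 26.6% had an unadjusted p under 0.05. Tnni3 differed by -0.087 ± 0.081 (limma adjusted p = 0.523) and Tnnt2 by 0.059 ± 0.11 (limma adjusted p = 0.777).

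At the pointed end, Lmod2 differed by 0.27 ± 0.17 after TAC with pimobendan (95% interval -0.091 to 0.64; limma adjusted p = 0.323). Leaving out TAC+control replicate 1 gave 0.14, and leaving out replicate 3 of that group gave 0.46. Tmod1 differed by -0.089 ± 0.062 (95% interval -0.22 to 0.044; limma adjusted p = 0.381). Tmod1 was the 1 member of 6 whose groups did not overlap, and that held for 29.9% of all tested genes (6.64% in the lower direction). The median of the 6 members was -0.088, with all tested genes at 0.095. As this comparison and the previous one share the TAC+control libraries, a high or low value there enters both with opposite sign.

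In sham hearts, pimobendan was compared with control to see the drug without a pressure load. Called genes were 0% of those tested, with 0 of 6 members called and 518 genes, none of them members, at an unadjusted p under 0.05. Tnnt2 had the largest value, -0.17 ± 0.11 (95% interval -0.42 to 0.073; limma adjusted p = 0.910), and -0.083 without Sham+pimobendan replicate 2. Its groups did not overlap, which held for 1 of 6 members and for 11.1% of tested genes (4.98% in the lower direction). Tnnc1 differed by -0.053 ± 0.12 (95% interval -0.32 to 0.21; limma adjusted p = 0.967). Lmod2 differed by -0.13 ± 0.17, and by -0.31 or -0.0055 without Sham+pimobendan replicate 1 or 2. The values of Lmod2, Tpm1, Tmod1 and Tnni3 had limma adjusted p 0.932 to 0.997, with Tpm1, Tmod1 and Tnni3 at -0.049, -0.030 and 0.0031. The median was -0.051 for the members and 0.013 for all tested genes.

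Pressure overload under pimobendan (TAC+pimobendan against Sham+pimobendan) gave 0 of 6 members called, with 4.89% of tested genes called (4.64% higher and 0.245% lower). For all 6 the groups overlapped, while for 27.9% of tested genes they did not (9.35% in the lower direction). Tnnt2 had the smallest p, at 0.25 ± 0.11 (95% interval 0.0097 to 0.50; limma unadjusted p = 0.0427, adjusted p = 0.202). Over all tested genes, 22.9% had an unadjusted p under 0.05. The overlap of Tnnt2 was narrow, at 5701 FPKM in TAC+pimobendan replicate 1 against 5754 FPKM in Sham+pimobendan replicate 3. Without Sham+pimobendan replicate 2 the value was 0.17. Tnnc1 differed by -0.068 ± 0.12 (95% interval -0.33 to 0.19; limma adjusted p = 0.765), and without TAC+pimobendan replicate 3 its sign turned, to 0.085. Tpm1 differed by -0.12 ± 0.090 and Tnni3 by -0.10 ± 0.081 (limma adjusted p = 0.445 and 0.465). Tmod1 (-0.053) and Lmod2 (0.022) had limma adjusted p-values of 0.630 and 0.956. The members' median was -0.061, beside -0.0061 for all tested genes.

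The interaction asks whether the TAC difference was the same with and without drug. Called genes were 0% of those tested, with 0 of 6 members called by limma and 2312 genes, none of them members, at an unadjusted p under 0.05. Lmod2 had the largest member value, 0.41 ± 0.24 (95% interval -0.11 to 0.92; limma adjusted p = 0.363). Next were Tnnt2 at 0.23 ± 0.16 (limma adjusted p = 0.450) and Tnnc1 at -0.18 ± 0.17 (95% interval -0.55 to 0.19; limma adjusted p = 0.597). With 1 library left out, Lmod2 ran from 0.28 (without TAC+control replicate 1) to 0.59 (without replicate 3 of that group). Tnnt2 ran from 0.14 (without Sham+pimobendan replicate 2) to 0.34 (without TAC+control replicate 1). Tnnc1 ran from -0.31 to -0.027 (without TAC+pimobendan replicates 2 and 3). Tpm1, Tnni3 and Tmod1 were at -0.15, -0.091 and -0.059. The median of the 6 was -0.075, and 0.066 over all tested genes. An adjusted p above the threshold does not show that the levels were equal, and the intervals give the sizes that remain possible.

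**Figure D3:**
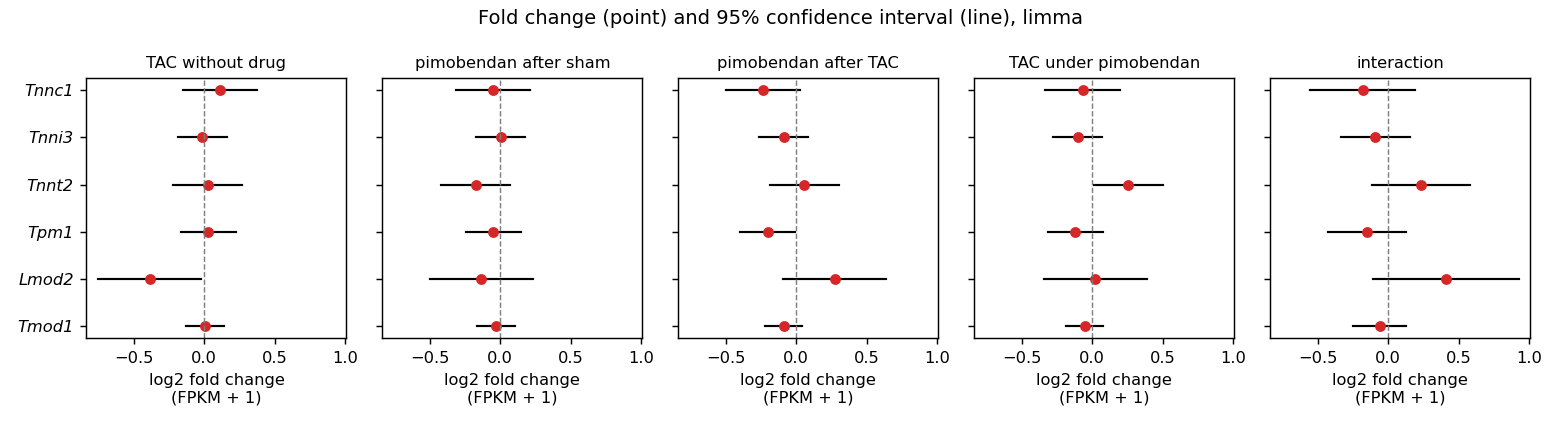
Log2 fold change of FPKM + 1 (x axis; point) with its 95% confidence interval (line) from limma, for the 6 tested members (y axis) in the 5 comparisons (panels). Intervals of Tmod1 and Tnni3 are the narrowest and those of Lmod2 the widest; the intervals that leave out 0 belong to Lmod2 in TAC without drug, Tpm1 in pimobendan after TAC and Tnnt2 in TAC under pimobendan, at adjusted p 0.585, 0.177 and 0.202.

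Across the 12 libraries some members moved together and others did not, which is given as a description. Of 15 pairs of the 6 tested members, 6 had a Pearson r above 0.5 on log2(FPKM + 1), and these were all the pairs among Tnnc1, Tnni3, Tpm1 and Tmod1. The highest was Tpm1 with Tmod1 (r = 0.83, Spearman's rho 0.79), and Tnnc1 with Tnni3 had r = 0.64 (rho 0.55). With group means removed the 6 values were 0.59 to 0.73. All 4 genes had their lowest level in TAC+pimobendan replicate 3, the library with the lowest FPKM sum (593203). Tnnt2 stood apart from its troponin partners, at r = 0.12 with Tnnc1 and -0.10 with Tnni3. With Tpm1 it had r = 0.25, which became 0.56 with group means removed. Lmod2 had negative values with all others, from -0.038 with Tnnt2 to -0.46 with Tmod1.

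Library properties moved with the same members. The r with a library's FPKM sum was 0.70 for Tnnc1, 0.65 for Tnni3, 0.65 for Tpm1 and 0.58 for Tmod1, but -0.038 for Tnnt2 and -0.45 for Lmod2. The r with a library's GC trend was 0.78 for Tnni3, 0.67 for Tmod1, 0.54 for Tpm1 and 0.43 for Tnnc1, and -0.55 for Tnnt2 and -0.25 for Lmod2. Their transcript GC contents were 55.9%, 51.3%, 50.8%, 53.8%, 55.1% and 48.6% in that order, beside a median of 51.1%. What part these properties have in the shared pattern was not tested.

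**Figure D4:**
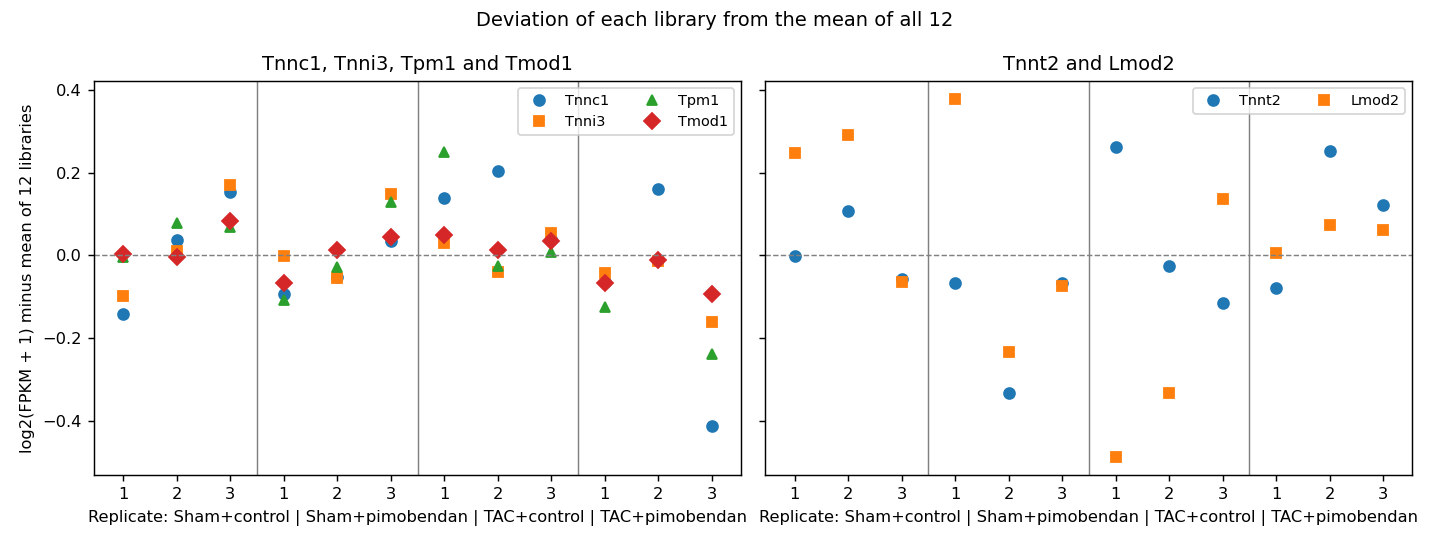
Value of each of the 6 tested members in each library, as log2(FPKM + 1) minus its mean over the 12 libraries (y axis), by group and replicate (x axis). Left, Tnnc1, Tnni3, Tpm1 and Tmod1, all lowest in TAC+pimobendan replicate 3; right, Tnnt2 and Lmod2, which have their lowest points in other libraries.

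Ratios within a library are free of its scaling. Tnnt2 over Tnnc1 ran from 1.16 to 2.05 with a median of 1.42, and the highest value was in TAC+pimobendan replicate 3. Tpm1 over Tnni3 ran from 1.34 to 1.69. Lmod2 over Tmod1, the elongating to the capping protein of the pointed end, was 2.12, 2.19 and 1.61 in Sham+control and, with pimobendan, 2.43, 1.51 and 1.65. After TAC it was 1.23, 1.40 and 1.92 in controls and, with pimobendan, 1.88, 1.89 and 1.99. The TAC+control values overlapped every other group through its replicate 3, while the TAC+pimobendan values lay close together, at 1.92 ± 0.059 against 1.52 ± 0.36 (SD, n = 3).

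Among 5296 other genes with a mean of at least 10 FPKM, the 5 whose pattern over the 12 libraries was most like that of Tnnc1 were Mybpc3 (r = 0.91), Myl3 (0.90), Ndufa11 (0.89), Mrps9 (0.89) and Mrpl38 (0.89). Mybpc3 encodes cardiac myosin-binding protein C and Myl3 the ventricular essential light chain of myosin. Ndufa11 is a subunit of respiratory complex I, and Mrps9 and Mrpl38 are mitochondrial ribosomal proteins. Without TAC+pimobendan replicate 3 these values were 0.82, 0.76, 0.81, 0.75 and 0.86.

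A list of 40 neighbouring genes of the thin filament, its regulators and the drug's enzyme target was read from the same fit, and 36 were tested. In TAC without drug, pimobendan after sham and the interaction limma called 0 of 36, with 3, 1 and 8 at an unadjusted p under 0.05. Over all tested genes the shares at that p were 8.33%, 4.54% and 20.3%. In pimobendan after TAC 1 rose and 1 fell (3.27% of all genes called), and in TAC under pimobendan 3 rose and 0 fell (4.89% of all genes called). At an unadjusted p under 0.05 were 13 and 8 of 36, beside 26.6% and 22.9% of all tested genes. The medians of the 36 in the 4 two-group comparisons were -0.054 (TAC without drug), 0.085 (pimobendan after TAC), -0.011 (pimobendan after sham) and 0.012 (TAC under pimobendan).

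The other troponin subunits, with 2 of 4 tested, had 0 limma calls and 0 at an unadjusted p under 0.05 in each comparison. Slow skeletal Tnnt1, which lies beside Tnni3 on chromosome 7 (4504569 to 4515975), ran from 12.4 to 21.5 FPKM. The fast skeletal subunits Tnni2 (0.69 to 2.27 FPKM), Tnnc2 (0 to 0.52) and Tnnt3 (0.09 to 0.79) stayed near the floor. The 3 other tropomyosins, the 4 tested of 5 other tropomodulins and leiomodins, and the 5 thick filament genes also had 0 calls, with at most 2 of a group at an unadjusted p under 0.05.

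Cardiac alpha-actin (Actc1), the main actin of the filament on which troponin sits, fell with pimobendan after TAC. Actc1 stood at 17412, 14524 and 15042 FPKM in TAC+control and at 11091, 12620.3 and 9044 in TAC+pimobendan, with no overlap. The log2 fold change was -0.53 ± 0.13 (limma adjusted p = 0.0482). Nebulette (Nebl), a nebulin relative that joins the thin filament to the Z-disc, rose. It stood at 13.4, 20.1 and 14.9 FPKM in TAC+control and at 20.6, 34.2 and 33.4 in TAC+pimobendan, again without overlap. In this comparison the groups did not overlap for 29.9% of all tested genes (6.64% in the lower direction). The log2 fold change of Nebl was 0.81 ± 0.20 (limma adjusted p = 0.0472). In TAC under pimobendan it was 1.03 ± 0.20 (limma adjusted p = 0.0314), from 13.5 ± 1.18 to 29.4 ± 7.64 FPKM (SD, n = 3).

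Both calls after TAC sat just inside the threshold and were kept under 2 (Actc1) and 4 (Nebl) of 14 alternatives. Quantile normalization took Actc1 to -0.077 (limma adjusted p = 0.456). Actc1 ranked 3 by mean FPKM, where that method keeps only changes of rank. Leaving out TAC+control replicate 1 or 3, or TAC+pimobendan replicate 2 or 3, ended both. The limma adjusted p then was 0.153, 0.104, 0.159 and 0.150 for Actc1, and 0.153, 0.111, 0.169 and 0.150 for Nebl. Without TAC+control replicate 2 the Actc1 call was also lost (0.0511). With the GC trend removed from each library, the values were -0.47 for Actc1 and 0.54 for Nebl, both at a limma adjusted p of 0.0828. The transcript of Nebl has 42.0% GC and that of Actc1 55.0%. With the replicate number as a block, the limma adjusted p was 0.0885 for Actc1 and 0.0854 for Nebl.

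In TAC under pimobendan the other called neighbours were Capza2, an alpha subunit of the protein that caps actin at the Z-disc, and Ppp1cb, a catalytic subunit of protein phosphatase 1. Capza2 rose from 43.8 ± 2.41 to 60.9 ± 5.81 FPKM (SD, n = 3), a log2 fold change of 0.46 ± 0.098 (limma adjusted p = 0.0314). The other alpha subunit Capza1 differed by 0.11 ± 0.13 (limma adjusted p = 0.649) and the beta subunit Capzb by -0.22 ± 0.081 (limma adjusted p = 0.123). Ppp1cb rose from 66.8 ± 6.14 to 92.5 ± 10.7 FPKM (SD, n = 3), a log2 fold change of 0.46 ± 0.12 (limma adjusted p = 0.0429). The transcripts of Capza2 and Ppp1cb have 39.3% and 41.9% GC. With the GC trend removed, Capza2 was at -0.053 (limma adjusted p = 0.758), Ppp1cb at 0.072 (0.702) and Nebl at 0.65 (0.110). With the replicate number as a block, the limma adjusted p was 0.0652 for Capza2 and Nebl and 0.0838 for Ppp1cb.

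The calls of TAC under pimobendan were kept under 6 (Nebl), 6 (Capza2) and 4 (Ppp1cb) of 14 alternatives. Without Sham+pimobendan replicate 2 or 3, or TAC+pimobendan replicate 2 or 3, the limma adjusted p of Capza2 was 0.0834, 0.153, 0.168 and 0.152, and Nebl had the same values to 3 digits. For Ppp1cb it was 0.0929, 0.200, 0.170 and 0.189, and 0.0519 without Sham+pimobendan replicate 1.

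**Figure D5:**
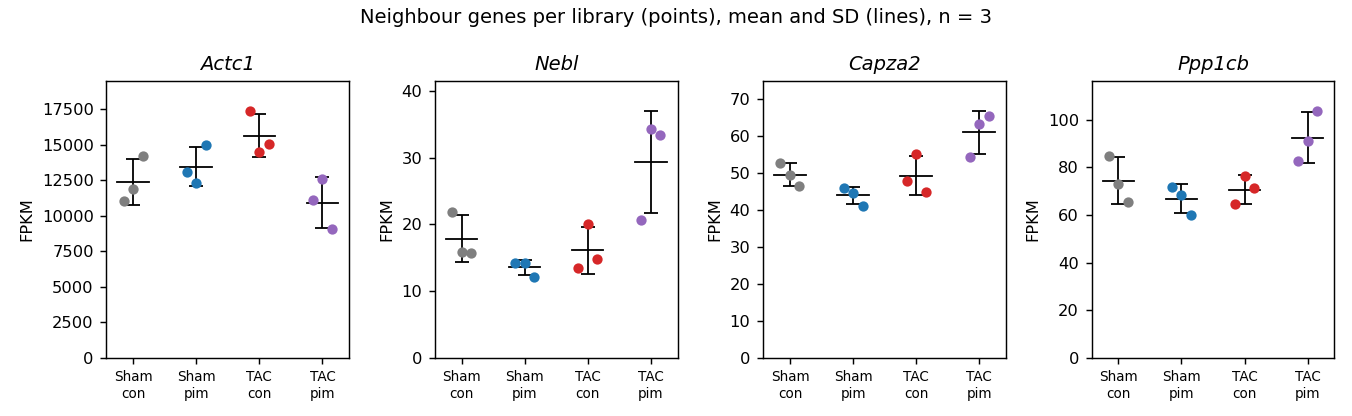
FPKM (y axis, from 0, a separate scale for each gene) of the 4 called neighbour genes by group (x axis), with points for libraries and lines for the mean and SD of 3. Actc1 lies between 9044 and 12620.3 FPKM in TAC+pimobendan and from 14524 FPKM upward in TAC+control; Nebl, Capza2 and Ppp1cb are highest in TAC+pimobendan.

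The drug's enzyme target, phosphodiesterase 3, had 0 of 2 genes called by limma in each of the 5 comparisons, with 2 at an unadjusted p under 0.05 in pimobendan after TAC and 1 in TAC without drug. Of all tested genes, 26.6% and 8.33% reached that p in those 2 comparisons. Pde3a, the main cardiac gene of phosphodiesterase 3, had sham means of 7.75 ± 1.36 FPKM in controls and 9.02 ± 1.87 with pimobendan, and TAC means of 7.07 ± 0.980 and 9.35 ± 1.43 FPKM (SD, n = 3). Pde3b had the smallest p of the neighbour list in TAC without drug, at 0.883 ± 0.181 FPKM in sham controls and 0.457 ± 0.125 after TAC (SD, n = 3; a log2 value of -0.37 ± 0.12, limma adjusted p = 0.520). Actc1 was next, at 0.34 ± 0.13 (limma adjusted p = 0.561), and at 0 under quantile normalization, which at its level keeps only changes of rank. In pimobendan after sham the smallest p belonged to 2 protein kinases C that can phosphorylate troponin. Prkcd had means of 5.52 ± 0.263 and 7.22 ± 0.617 FPKM (SD, n = 3; 0.33 ± 0.11, limma adjusted p = 0.910), and Prkce differed by -0.20 ± 0.096 (limma adjusted p = 0.910).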

How the data were processed

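Left ventricular messenger RNA of 12 mice was selected with oligo(dT) beads and sequenced, per the labels' protocols. The authors deposited 1 table of FPKM and TPM values per gene and library. The tools in the submitters' processing notes are RSEM 1.2.12, HISAT2 2.0.4, DESeq2 1.4.5 and Bowtie2 2.2.5, without their roles, and the build is GRCm38. The deposited TPM served as an alternative scale.

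A gene was tested if 3 or more libraries reached 1 FPKM. The log2 of FPKM + 1 was fitted in R 4.3.3 by limma 3.58.1 with its variance trend, 1 mean per group, all 12 libraries and 8 residual degrees of freedom. Benjamini-Hochberg adjustment ran over the 11415 tested genes, with calls under 0.05. The pseudocount understates changes of low genes. The fit was tested on simulated data with a common spread for all genes, for pimobendan after TAC. It called 35 of 100 genes changed by 0.5 on the log2 scale and 100 of 100 changed by 1. Of 11215 unchanged genes it called 12. Changes of 0.5 were thus often missed. The log2 ratio of Tnni1 to Tnni3 used an exact permutation test (scipy 1.17.1), adjusted over the 2 comparisons where every library gave a ratio, in place of the 4 planned.

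The members and lists were chosen with earlier results of these data known. All members are named, as are neighbour genes called in any comparison, or else the 2 with the smallest p per two-group comparison. The alternatives were median-ratio scaling, TPM, quantile normalization, no filter, a pseudocount of 0.1, a replicate block, only the groups compared, and leaving out each library. Removal of a loess trend on GC content per library (span 0.5) was added after seeing the data. Coordinates and promoters came from RefSeq on GRCm38, matched by gene ID, with all 7 members found among the promoters. GC content was the median over a gene's GENCODE transcripts on GRCm38, matched by gene ID.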

Additional observations from a re-analysis of the deposited data

How the results depend on the processing

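The count of tested members called was 0 in every comparison under each alternative run. Over 450 alternative values of the 30 member fold changes the smallest limma adjusted p was 0.0890, for Tnnt2 in TAC under pimobendan. The sign turned in 39 of them, 19 with a library left out, all for main values of at most 0.20 in size. The Tnni1 to Tnni3 ratio with 1 FPKM added had no counterpart without it in the comparisons that use TAC+control. Absolute depth is unknown, and counting error was not estimated for these values.

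With other scalings, the log2 values that turned sign in TAC without drug were Tmod1 (-0.038), Tnnt2 (-0.020) and Tpm1 (-0.014) with TPM, Tnni3 (0.042) with median-ratio scaling, and Tnnt2 (-0.090) and Tpm1 (-0.028) with quantile normalization. In pimobendan after TAC they were Tnni3 (0.048) and Tpm1 (0.077) with quantile normalization and Tnnt2 (-0.023) with median-ratio scaling. In pimobendan after sham, Tnni3 turned with median-ratio scaling (-0.0092), TPM (-0.017) and GC trend removal (-0.028). In TAC under pimobendan, Tmod1 (0.00034) and Tpm1 (0.11) turned with quantile normalization, and Lmod2 (-0.053) and Capza2 (-0.053) with GC trend removal. In the interaction, Tmod1 (0.034) and Tnni3 (0.0031) turned with TPM, Tnni3 (0.048) and Tpm1 (0.13) with quantile normalization, and Tnni3 (0.0085) with GC trend removal. TPM shifted the median of all genes to 0.17 in pimobendan after TAC, to -0.10 in TAC without drug and to 0.16 in the interaction. The cause was not tested. Among the highest genes, quantile normalization keeps only changes of rank.

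With 1 library left out, the values that turned sign had these ranges. In TAC without drug they were -0.010 to 0.033 for Tmod1, -0.076 to 0.058 for Tnni3, -0.087 to 0.10 for Tnnt2 and -0.056 to 0.082 for Tpm1. In pimobendan after TAC, Tnnt2 ran from -0.019 to 0.17. In pimobendan after sham they were -0.053 to 0.0017 for Tmod1, -0.13 to 0.016 for Tnnc1, -0.059 to 0.074 for Tnni3 and -0.12 to 0.0038 for Tpm1. In TAC under pimobendan, Tnnc1 ran from -0.20 to 0.085, Lmod2 from -0.11 to 0.20, and the log2 ratio of Tnni1 to Tnni3 from -0.27 to 0.42.

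The number of genes called over the whole table moved far more. In pimobendan after TAC, 373 became 1 with median-ratio scaling, 1170 with TPM, 1 with the replicate block, and 0 each with quantile normalization, no filter, only the groups compared and GC trend removal. It was 3 without TAC+control replicate 1, 0 without TAC+control replicate 3, 1190 without TAC+pimobendan replicate 1, 0 without replicate 2 and 3 without replicate 3 of that group, a range of 0 to 1190. In TAC under pimobendan, 558 became 298 with quantile normalization and 0 each with no filter, the replicate block, only the groups compared and GC trend removal. It was 328, 0 and 0 without Sham+pimobendan replicates 1, 2 and 3 and 1225, 0 and 0 without TAC+pimobendan replicates 1, 2 and 3. In TAC without drug, 0 became 2 with only the groups compared, and 0 to 4 with a library left out. In the interaction it ran from 0 to 773, the highest without TAC+pimobendan replicate 1. The labels do not say whether a replicate number marks a shared litter, batch or day. Residuals of same-numbered libraries of different groups had a median r of -0.072 (from -0.44 to 0.25), against 0.040 for other pairs. Of 12 libraries, 2 were closest to one of their own number. These values cannot decide whether the numbers pair the mice.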
